A study of Mus musculus with 4 samples.

Results

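The 10 genes described here belong to the Hippo-YAP pathway and were taken from the deposited table by symbol. They are the co-activator genes Yap1 and Wwtr1, the TEAD transcription factor genes Tead1, Tead2, Tead3 and Tead4, and 4 genes known both as targets of the pathway and, for most, as parts of it: Ankrd1, Amotl2, Lats2 and Ajuba. Each symbol matched 1 of 55536 rows, and all 10 were among the 12838 genes with enough reads to be tested. RNA sequencing was done on stromal vascular cells of inguinal white adipose tissue, that is, the cells left once adipocytes are removed, from wild-type male mice at postnatal day 21. There was 1 library for each of 4 combinations of parental group and drink: LnF1 with water, LnF1 with 1,3BD, ObF1 with water and ObF1 with 1,3BD. The names LnF1, ObF1 and 1,3BD are kept as the labels write them. Each library is a pool of 3 mice, so no combination has a replicate, and neither the mouse strain nor who received the drink is given in the sources used here.

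Hippo signalling is a kinase cascade in which the kinases STK3 and STK4 activate LATS1 and LATS2, which phosphorylate the co-activators YAP and TAZ and keep them out of the nucleus. Cell contact, cell shape and tension in the actin skeleton act on this cascade. YAP and TAZ, the latter encoded by Wwtr1, bind no DNA by themselves and reach their target genes through TEAD factors. In fat, TAZ is known as a repressor of PPARG, the master regulator of adipocyte formation, and the pathway is known to weigh on whether progenitors become adipocytes or stay fibroblast-like. Activity of YAP and TAZ is set largely at the protein, which RNA levels do not report.

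TEAD factors are known to recognise the letters GGAATG, or CATTCC on the other strand. These sequences are shown because targets of the pathway are among the genes described. Promoter windows of 250 bases before to 50 bases after each start site came from RefSeq (build GRCm38.p6) and covered 8 of the 10 genes, with Tead1 and Tead4 unmatched. The letters occurred on either strand in the windows of 7 of these 8 genes (Yap1, Wwtr1, Tead3, Ankrd1, Amotl2, Lats2 and Ajuba) and not in that of Tead2. Across the table, 14.7% of 32817 windows held them, and 16.6% of 26994 genes had at least 1 such window. Genes with several start sites have several windows. Stretches from before the start sites follow, 5′ to 3′, with the TEAD letters in capitals. Only 30 bases are given where an exon of the GENCODE M21 annotation overlaps the stretch.
Ankrd1, distal, chr19:36120037-36120066, minus strand: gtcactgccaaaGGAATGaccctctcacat
Ankrd1, proximal, chr19:36119950-36119979, minus strand: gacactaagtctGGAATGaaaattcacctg
Amotl2, chr9:102717727-102717756, plus strand: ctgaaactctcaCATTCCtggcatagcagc
Ajuba, chr14:54577774-54577893, minus strand: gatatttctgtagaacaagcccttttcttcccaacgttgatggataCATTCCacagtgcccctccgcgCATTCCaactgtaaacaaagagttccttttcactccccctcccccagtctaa
Yap1, chr9:8004675-8004794, minus strand: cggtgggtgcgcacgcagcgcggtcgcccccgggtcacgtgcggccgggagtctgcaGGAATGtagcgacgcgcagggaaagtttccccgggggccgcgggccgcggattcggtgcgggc
Wwtr1, chr3:57575984-57576103, minus strand: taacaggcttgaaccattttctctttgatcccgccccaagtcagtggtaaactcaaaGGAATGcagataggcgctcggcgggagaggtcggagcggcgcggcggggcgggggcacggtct

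In the Ankrd1 window the letters began 210 and 123 bases before the start site, in that of Ajuba 186 and 164, and in that of Amotl2 65. The single Lats2 match lay after its start site and is not printed. Tead3 had matches before 2 of its start sites, the nearest 182 bases before the first and 123 and 114 bases before the second. Neither the AP-1 letters TGANTCA (7.81% of all windows) nor a CArG box, the site of serum response factor (1.63% of all windows), was found in any window of the 8 genes. Each match is only a run of letters, and no binding was measured.

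The libraries held between 24586827 and 26000090 reads, and values are library-scaled counts (CPM) as deposited by the authors, with 1 read worth 0.0359 to 0.0434 CPM. The limit set by a count of 0 is 3 reads, at most 0.130 CPM. Fibroblast and progenitor markers differed widely in level. Col1a1 (3371 to 18761 CPM) and Col3a1 (5239 to 9400 CPM) were the highest of that list. Pdgfra stood between 236 and 412 CPM, Pdgfrb between 154 and 716 and Ly6a between 182 and 300. The others were low: Cd34 (3.56 to 14.6 CPM), Icam1 (1.61 to 13.1), Lum (0.0750 to 6.54), Pi16 (0.487 to 2.08) and Dpp4 (0.143 to 0.869). Defining markers of other cells that this fraction can hold were at 0 reads in all 4 libraries: Cd3e, Cd79b and Ms4a1 of lymphocytes, Adipoq, Lep and Ucp1 of fat cells, Hbb-bs of red cells, and Epcam and Krt8 of epithelium. Of the other leukocyte markers, Ptprc (0.0359 to 0.150 CPM) was near the limit of 3 reads, and Adgre1 ranged from 0 to 0.806 CPM. The leukocyte list summed to 2.73 to 7.17 CPM, most of it Cd68 (0.956 to 2.14) and Csf1r (0.900 to 6.13). Of the 8 mural and contractile markers, all 8 were lower with 1,3BD, and their summed level was 8419 and 9112 CPM in the LnF1 and ObF1 water libraries against 141 and 206 CPM in the 1,3BD libraries. The 3 endothelial markers tested were lower as well (list sums 7.17 and 18.6 CPM with water, 1.18 and 2.70 CPM with 1,3BD), as were 2 of 4 proliferation markers. Of 8 progenitor and fibroblast markers tested, 3 were lower (Pdgfrb, Icam1 and Col1a1). The other 5 did not pass, with log2 differences for 1,3BD above 0 for Pdgfra (0.51) and Cd34 (0.91). Those of Ly6a (-0.15), Col3a1 (-0.45) and Pi16 (-0.70) were below 0. That whole list summed to 27031 and 28177 CPM with water and 12920 and 9396 CPM with 1,3BD, most of it Col1a1 and Col3a1. Plin1 was the 1 adipocyte marker tested and was higher (list sums 0.0849 and 0.0869 CPM with water, 5.09 and 1.84 CPM with 1,3BD). Mesothelial markers summed to at most 0.739 CPM, epithelial to 0.174 CPM and erythroid to 0.645 CPM. Reads from mitochondrial genes made up 1.13% and 1.30% in the water libraries and 2.78% and 5.80% with 1,3BD. The part of these shifts in the results on 1,3BD was not tested. In such bulk libraries, fewer cells of a type and less RNA per cell cannot be told apart.

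Differences were tested with limma in a model additive in parents and drink, with p-values adjusted by the Benjamini-Hochberg method over all 12838 genes and a threshold of 0.05. Its standard error (SE) comes from how far a difference departs between settings of the other factor, moderated toward genes of similar level. Only 1 residual degree of freedom stands behind it before moderation. Intervals on single-library differences are exact 95% intervals for counting error only.

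With 1,3BD, 5 of the 10 genes fell and 1 rose. Ankrd1, Ajuba, Amotl2, Tead3 and Tead2 fell, Wwtr1 rose, and Yap1, Tead1, Tead4 and Lats2 did not pass. Over all genes tested, 24.8% were called lower and 19.2% higher (44.0% in either direction, 3189 lower and 2466 higher), so calls were common in this comparison. With library totals in place of the authors' scaling, 2283 genes were lower and 3663 higher. At an unadjusted p under 0.05, 7 of the 10 genes were found by limma, against 52.1% of all genes. The median log2 difference was -0.87 over the 10 genes and -0.06 over all genes tested. Of the 9 genes at a mean of at least 5 CPM, 4 were at least 2-fold lower in LnF1 and 5 in ObF1, against 14.3% and 17.6% of 10238 genes at that level, and 0 were at least 2-fold higher, against 8.93% and 10.7%. EdgeR's quasi-likelihood test and DESeq2 on the recovered reads gave the same counts of 5 lower and 1 higher, against 24.3% and 18.7% of all genes with edgeR and 21.3% and 15.2% with DESeq2. Where 4 values follow each other below, they are the water and 1,3BD libraries of LnF1 and then those of ObF1.

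**Figure D1:**
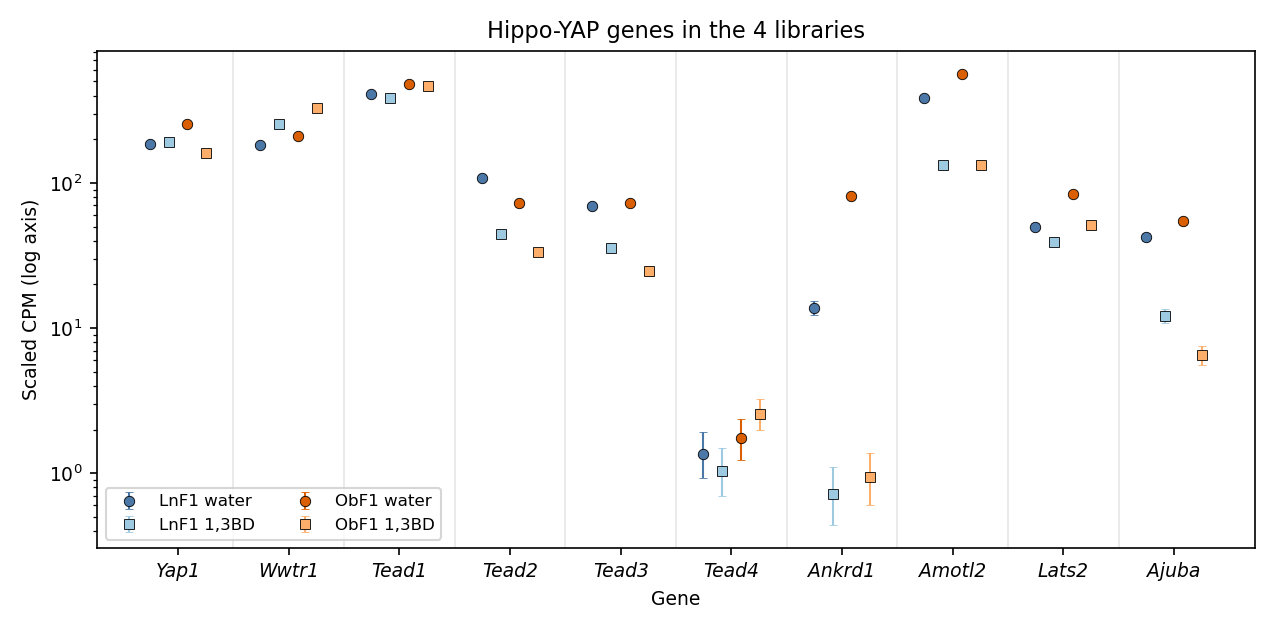
Scaled CPM (log axis) of the 10 genes in the 4 libraries, with circles for water and squares for 1,3BD, blue for LnF1 and orange for ObF1. Bars are exact 95% intervals for counting error only. Ankrd1 ranged from 0.717 to 80.6 CPM, while Tead1 stayed between 387 and 481 CPM.

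Yap1 and Wwtr1 encode the co-activators. Yap1 (ENSMUSG00000053110, chr9:7931999-8004596, minus strand, GRCm38) stood at 184 CPM in LnF1 water, 192 in LnF1 1,3BD, 253 in ObF1 water and 160 in ObF1 1,3BD. Its ObF1 libraries were the highest and the lowest of the 4, and the water and 1,3BD values overlapped. The log2 difference for 1,3BD was -0.30 (SE 0.22, limma adjusted p = 0.283). In single libraries it was 0.06 in LnF1 (interval -0.00225 to 0.114) and -0.66 in ObF1 (-0.72 to -0.61). Wwtr1 (ENSMUSG00000027803, chr3:57455649-57575910, minus strand) stood at 182 CPM in LnF1 water, 255 in LnF1 1,3BD, 210 in ObF1 water and 329 in ObF1 1,3BD. Both 1,3BD libraries lay above both water libraries. Its log2 difference for 1,3BD was 0.57 (SE 0.19, limma adjusted p = 0.0346), with 0.49 in LnF1 and 0.65 in ObF1. That call is near the threshold: it was lost with parents left out of the model (adjusted p = 0.0874) and without LnF1 water (0.355), without ObF1 water (0.171) or without ObF1 1,3BD (0.298).

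The balance of the co-activator transcripts within a library does not depend on how libraries were scaled. Per kilobase of annotated exon, Wwtr1 stood at 1.91 times Yap1 in LnF1 water (interval 1.84 to 1.998), 2.58 in LnF1 1,3BD (2.49 to 2.68), 1.61 in ObF1 water (1.55 to 1.67) and 3.99 in ObF1 1,3BD (3.84 to 4.14). In either parental group the ratio was higher with 1,3BD, and the 2 ObF1 libraries held the extremes. The size of the ratio rests on the gene length used: with the longest annotated transcript in place of all exons it was 1.11, 1.5, 0.932 and 2.31 in the same order.

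The TEAD genes, which encode the DNA-binding partners, did not move alike. Tead1 (ENSMUSG00000055320, chr7:112679318-112906807, plus strand) stood at 412 CPM in LnF1 water, 387 in LnF1 1,3BD, 481 in ObF1 water and 465 in ObF1 1,3BD. The ObF1 libraries were above the LnF1 libraries, and drinks overlapped. The log2 difference for 1,3BD was -0.07 (SE 0.20, limma adjusted p = 0.799), and it turned to 0.18 with library totals in place of the authors' scaling. Tead2 (ENSMUSG00000030796, chr7:45215753-45233644, plus strand) stood at 109 CPM in LnF1 water, 44.6 in LnF1 1,3BD, 72.2 in ObF1 water and 33.3 in ObF1 1,3BD. Its log2 difference for 1,3BD was -1.20 (SE 0.20, limma adjusted p = 0.000870), and drinks did not overlap. Without LnF1 water that call was lost (log2 -0.90, adjusted p = 0.103). Tead3 (ENSMUSG00000002249, chr17:28331671-28350817, minus strand) stood at 69.0, 35.6, 72.5 and 24.6 CPM. For Tead3 the 1,3BD log2 difference was -1.25 (SE 0.23, limma adjusted p = 0.00124), with both 1,3BD libraries below both water libraries. Tead4 (ENSMUSG00000030353, chr6:128224288-128300823, minus strand) was rare, with 32, 29, 40 and 68 reads in the same order (1.36, 1.04, 1.74 and 2.55 CPM). It did not pass in this comparison (log2 0.09, SE 0.44, limma adjusted p = 0.888).

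Summed over the 4 TEAD genes, the level per kilobase of exon was 63.7 CPM in LnF1 water and 61.8 in ObF1 water, against 43.4 and 45.6 in the 1,3BD libraries. Tead1 made up 47.7% of this sum in LnF1 water and 57.4% in ObF1 water, and 65.7% and 75.1% with 1,3BD. Tead2 made up 35.6% and 24.4% with water, and 21.5% and 15.3% with 1,3BD. Tead3 went from 16.1% to 12.2% in LnF1 and from 17.5% to 8.04% in ObF1. The share of Tead1 was thus higher, and those of Tead2 and Tead3 lower, with 1,3BD in both parental groups, and Tead4 did not exceed 1.55%. With longest transcripts, Tead1 made up 44.1%, 62.0%, 53.0% and 72.4%.

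**Figure D2:**
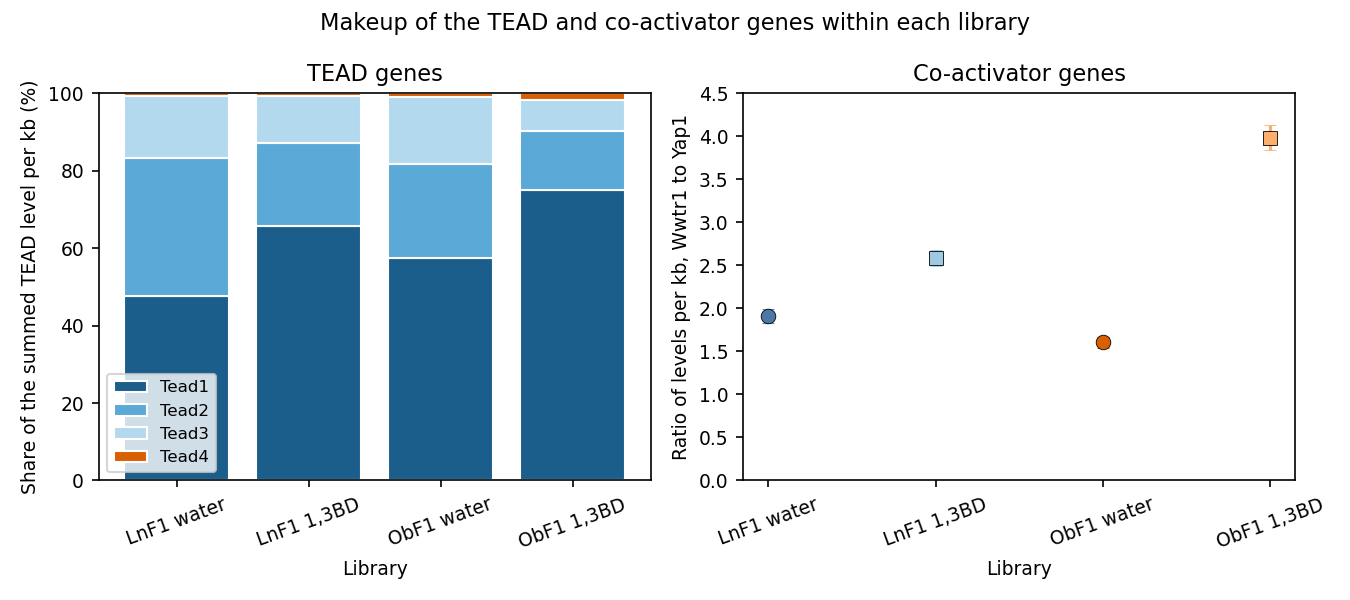
Left, share (%) of each TEAD gene in the summed TEAD level per kilobase of exon, by library. Right, ratio of Wwtr1 to Yap1 per kilobase, with exact 95% intervals for counting error. Tead1 takes the largest share in each library, from 47.7% to 75.1%, and the ratio is highest in ObF1 1,3BD at 3.99.

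Of the 4 target genes among the 10, Ankrd1 moved furthest. Ankrd1 (ENSMUSG00000024803, chr19:36111961-36120099, minus strand) encodes an ankyrin repeat protein of the sarcomere and nucleus and is a widely used readout of YAP and TAZ. It stood at 13.7 CPM (323 reads) in LnF1 water, 0.717 CPM (20 reads) in LnF1 1,3BD, 80.6 CPM (1856 reads) in ObF1 water and 0.937 CPM (25 reads) in ObF1 1,3BD. Both water libraries were far above both 1,3BD libraries, and they also differed from each other. The level was 19.1-fold lower with 1,3BD in LnF1 and 86.0-fold lower in ObF1, and the log2 difference was -5.21 (SE 0.49, limma adjusted p = 9.44e-05). Without LnF1 1,3BD or without ObF1 1,3BD the log2 difference was -5.04 and -5.39, and the adjusted p was 0.208 and 0.206. Such fits leave out parents as well and so hold the difference between the water libraries as error.

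Amotl2 and Ajuba encode scaffold proteins that act on the cascade they are targets of. Amotl2, of the angiomotin family, which binds YAP and TAZ at junctions and actin (ENSMUSG00000032531, chr9:102716672-102733418, plus strand), stood at 384 CPM in LnF1 water, 133 in LnF1 1,3BD, 559 in ObF1 water and 132 in ObF1 1,3BD. The 1,3BD libraries were nearly level and below both water libraries. For Amotl2 the log2 difference was -1.81 (SE 0.21, limma adjusted p = 7.23e-05), or 2.90-fold in LnF1 and 4.22-fold in ObF1. Ajuba, a LIM protein that restrains LATS kinases (ENSMUSG00000022178, chr14:54567472-54577558, minus strand), stood at 42.1, 12.2, 54.4 and 6.49 CPM. Its water libraries lay above its 1,3BD libraries, and the ObF1 libraries were the extremes. For Ajuba the log2 difference was -2.42 (SE 0.30, limma adjusted p = 0.000209), or 3.47-fold in LnF1 and 8.38-fold in ObF1.

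Lats2, the kinase that inactivates YAP and TAZ and is itself a target of them (ENSMUSG00000021959, chr14:57689662-57758388, minus strand), stood at 50.04 CPM in LnF1 water, 39.1 in LnF1 1,3BD, 84.2 in ObF1 water and 51.4 in ObF1 1,3BD. ObF1 1,3BD lay above LnF1 water, so the drinks overlapped. The log2 difference for 1,3BD was -0.53 (SE 0.21, limma adjusted p = 0.0585). The annotation places a second gene model, Gm49361 (at most 0.0750 CPM), on the same strand over 2955 bases of Lats2 exons. How reads shared by both were counted is not known here, which makes the level of Lats2 uncertain. Yap1 shares 116 bases and Tead2 13 bases of exon with a gene on the other strand. Neither partner exceeded 0.261 CPM in any library.

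Set against Yap1 per kilobase within each library, which no scaling between libraries alters, Ankrd1, Amotl2 and Ajuba were lower with 1,3BD in both parental groups. These ratios have no test. The ratio of Ankrd1 to Yap1 was 0.239 in LnF1 water (interval 0.212 to 0.267) and 1.02 in ObF1 water (0.969 to 1.08), against 0.0120 (0.00733 to 0.0186) and 0.0188 (0.0122 to 0.0278) with 1,3BD. The ratio of Amotl2 to Yap1 was 3.07 and 3.25 with water and 1.02 and 1.22 with 1,3BD. That of Ajuba was 0.581 and 0.546 with water and 0.161 and 0.103 with 1,3BD. With longest transcripts those of Ajuba were 0.356 and 0.334 against 0.0987 and 0.0631. On that length those of Amotl2 were 2.49 and 2.63 against 0.827 and 0.988, and those of Ankrd1 0.195 and 0.833 against 0.00979 and 0.0153. The size of each ratio to Yap1 thus rests on the gene length used. The ratio of Lats2 was 0.361 and 0.442 with water and 0.271 and 0.427 with 1,3BD, and its ObF1 intervals overlapped (0.419 to 0.465 and 0.402 to 0.454).

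The genes with TEAD letters in their windows included 4 that fell (Ankrd1, Amotl2, Ajuba and Tead3), 1 that rose (Wwtr1) and 2 that did not pass (Yap1 and Lats2), and Tead2, without the letters, fell too. Since Tead2 was the only gene with a window but no letters, these windows cannot show whether the letters go with a fall.

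**Figure D3:**
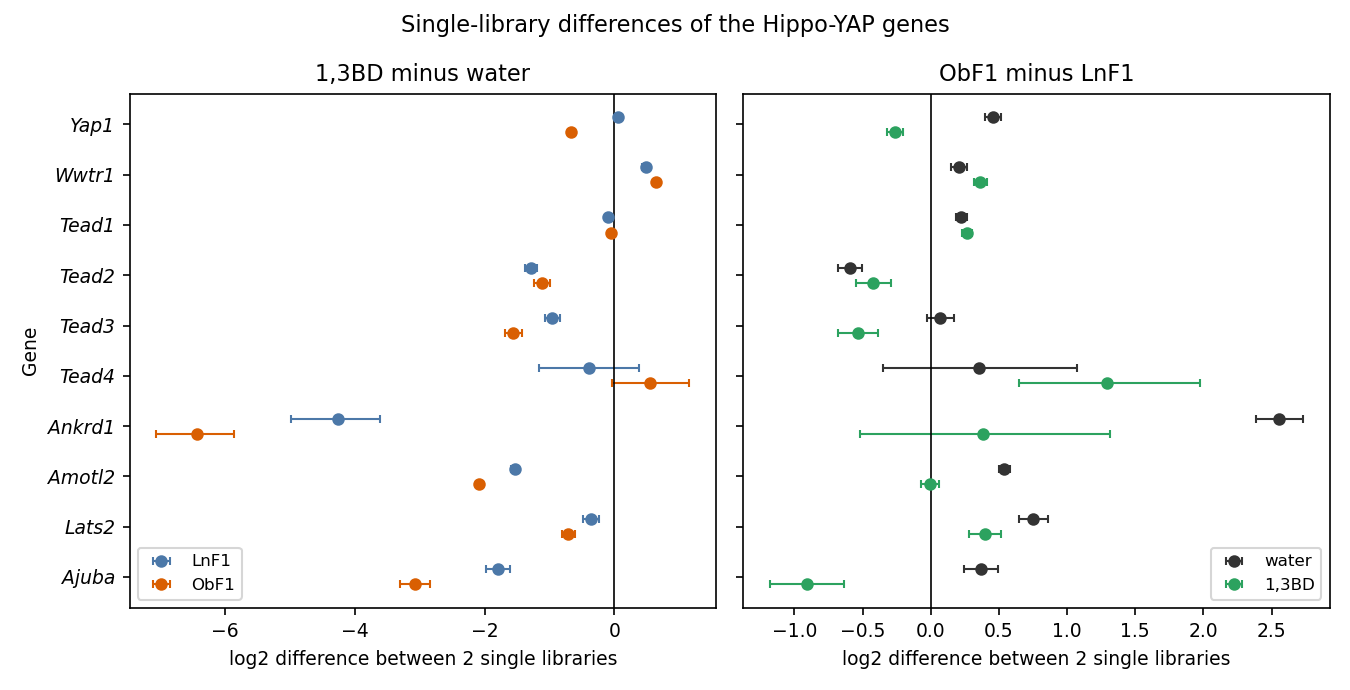
Log2 differences between single libraries for each gene: left, 1,3BD minus water in LnF1 (blue) and ObF1 (orange); right, ObF1 minus LnF1 with water (black) and with 1,3BD (green). Bars are exact 95% intervals for counting error only. On the left, Ankrd1 lies at -4.26 and -6.43 and Wwtr1 at 0.49 and 0.65.

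Ordered by mean level per kilobase of exon over the 4 libraries, Wwtr1 (51.1 CPM per kilobase) and Amotl2 (48.0) led, followed by Tead1 (32.2), Yap1 (21.3), Tead2 (13.5), Ankrd1 (8.32), Lats2 (8.06), Ajuba (7.90), Tead3 (7.51) and Tead4 (0.465). Ranges over the 4 libraries overlapped between all neighbours in this order except Tead1 (28.5 to 35.5) and Yap1 (17.3 to 27.3), and Tead3 (3.67 to 10.8) and Tead4 (0.289 to 0.709). With the longest transcript as length, Amotl2 came first and Wwtr1 second, Tead3 moved above Ankrd1, and Tead1 (38.8 to 48.3) overlapped Yap1 (30.3 to 47.9). Among all genes tested with a length, Wwtr1 lay at percentile 94.1 of this level, Yap1 at 83.9, Ankrd1 at 62.5 and Tead4 at 6.83.

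The rest of the pathway was split by role. Of 23 genes for kinases, scaffolds and adaptors upstream of the co-activators, 6 rose with 1,3BD, 7 fell and 10 did not pass (median log2 0.01, against -0.06 for all genes). Over all genes tested, 19.2% were called higher and 24.8% lower, and the shares in this list lie near these. Those that rose included Sav1, the scaffold of the STK3 and STK4 kinases, which stood at 46.7 and 110 CPM with water and 1,3BD in LnF1, and at 56.4 and 167 CPM in ObF1 (log2 1.40, SE 0.20, limma adjusted p = 0.000296). Map4k4, a kinase that acts on LATS beside STK3 and STK4, rose from 325 to 793 CPM and from 406 to 1017 CPM (1.30). The other genes that rose were Lats1, Mob1b, Taok1 and Slmap (0.83 to 0.97), which encode a LATS kinase, its co-activator, an upstream kinase and a part of the phosphatase complex that opposes STK3 and STK4. Those that fell included Rassf1, a scaffold for STK kinases (-1.56), and Wwc2, a relative of the upstream regulator KIBRA (-1.42). The other genes that fell were Dchs1 (-1.82), Wwc1 (-1.45), Frmd6 (-1.20), Ptpn14 (-1.03) and Fat1 (-0.73). Of these, Dchs1 and Wwc1 were low, at a mean of 4.10 and 2.19 CPM. Over all 60 other pathway genes tested, 7 were called higher and 30 lower, where 19.2% of all genes tested were called higher and 24.8% lower. Both counts were smaller in some fits that left out 1 library, as were those over all genes.

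Of 8 angiomotin and LIM adaptor genes, 5 fell, 0 rose and 3 did not pass (median log2 -1.05, against -0.06 for all genes, of which 24.8% were called lower and 19.2% higher). Zyx, which encodes the focal adhesion protein zyxin, stood at 965 and 168 CPM with water and 1,3BD in LnF1, and at 970 and 183 CPM in ObF1 (log2 -2.46, SE 0.20, limma adjusted p = 6.03e-06). Trip6 (-1.64), another LIM protein of adhesions, and Wtip (-1.62), a relative of Ajuba, fell too. Among the VGLL genes, whose proteins bind TEAD in place of YAP and TAZ, 2 of 4 had enough reads to be tested. Vgll3 fell and stood at 203 and 119 CPM with water and 1,3BD in LnF1, and at 406 and 220 CPM in ObF1 (log2 -0.83, SE 0.19, limma adjusted p = 0.00562), and Vgll4 did not pass.

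Of 28 further genes reported as targets of YAP and TAZ, 27 were tested, and 17 fell, 1 rose and 9 did not pass with 1,3BD (median log2 -1.52). Over all genes tested, 24.8% were called lower and 19.2% higher, with a median of -0.06. Ctgf, a matricellular growth factor gene and a standard readout of the pathway, stood at 585 and 8.57 CPM with water and 1,3BD in LnF1, and at 2033 and 29.2 CPM in ObF1 (log2 -6.10, SE 0.19, limma adjusted p = 1.11e-08). Edn1, which encodes endothelin 1 (-6.15, with at most 2 reads in either 1,3BD library), Thbs1, the matrix protein thrombospondin 1 (-4.00), and Tgfb1i1, a LIM protein of adhesions also known as HIC5 (-3.49), fell too. The 1 gene that rose was Gadd45a (0.99), known for growth arrest and stress. The list was written from general knowledge of the pathway, and many of its genes also respond to serum response factor or TGF-beta. Summed, its genes stood at 27402 CPM in LnF1 water and 37532 in ObF1 water, against 7169 and 7280 with 1,3BD. Thbs1 made up most of the sum with water (17365 and 20404 CPM, against 1151 and 1205 with 1,3BD). Fstl1, which did not pass, stood at 3225 and 3782 CPM with water and 3876 and 3350 with 1,3BD. All 8 contractile markers fell beside the targets and the adaptors, and their part in these counts was not tested. Some genes of the target list were known to fall from earlier results of these data, so the count of that list is no independent evidence.

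**Figure D4:**
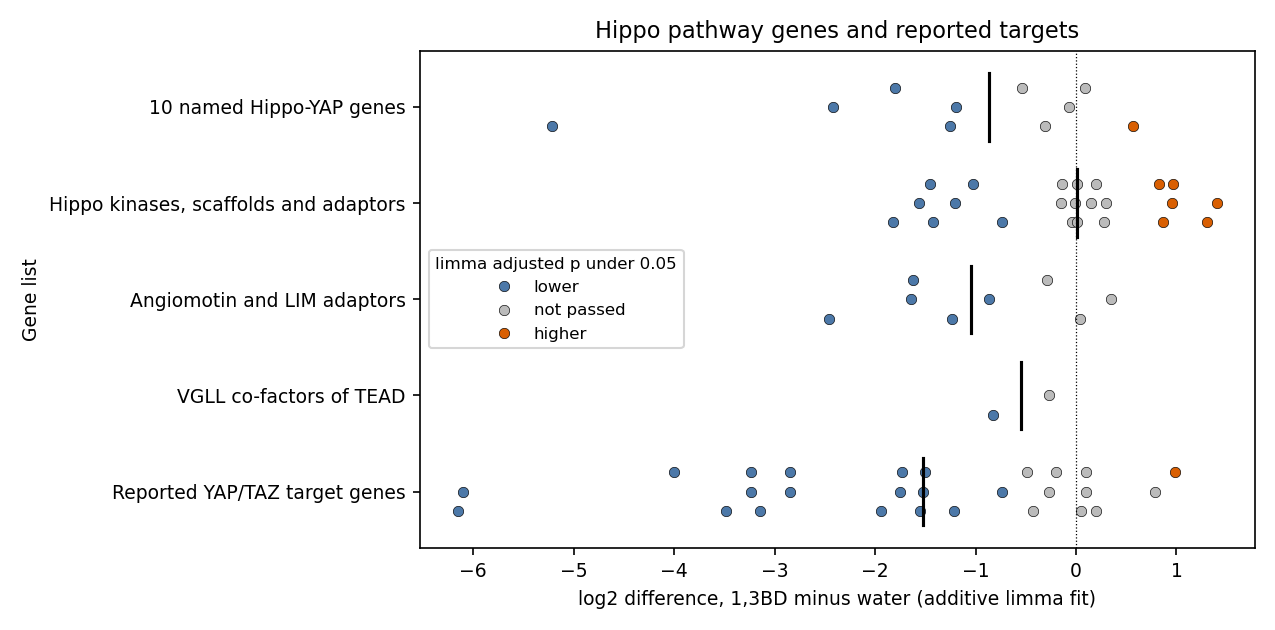
Log2 difference between 1,3BD and water from the additive limma fit, 1 point per tested gene, by list. Blue points are lower and orange points higher at a limma adjusted p under 0.05, grey points did not pass, and black bars are medians. The target list has its median at -1.52 and the kinase list at 0.01.

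For ObF1 against LnF1, 0 of the 10 genes passed in limma, where 0.195% of all genes tested were called higher and 0.101% lower. At an unadjusted p under 0.05, 3 of 10 were found (Ankrd1, Lats2 and Tead2), against 10.8% of all genes, where 0.296% passed in either direction after adjustment. EdgeR called 0 of the 10 (0.187% of all genes higher, 0.109% lower). DESeq2 called 1, Ankrd1 (adjusted p = 0.0209), with 0.545% of all genes higher and 0.382% lower. Of the 9 genes at a mean of at least 5 CPM, 1 was at least 2-fold higher in ObF1 with water and 0 were lower, against 1.85% and 1.42% of genes at that level. With 1,3BD 0 were past 2-fold either way, against 1.95% higher and 3.06% lower. The median log2 difference was 0.26 over the 10 genes and 0.01 over all genes tested.

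Among the 10 genes, Ankrd1 had the largest difference, which lay in the water libraries. It was 5.88-fold higher in ObF1 than in LnF1 with water (log2 2.56, interval 2.38 to 2.73) and 1.31-fold with 1,3BD (log2 0.39, interval -0.52 to 1.31). With 1,3BD, on 20 and 25 reads, the interval spans 0 and lies below that with water, for counting error only. The additive fit gave 1.45 (SE 0.49, limma adjusted p = 0.335), and without a filter on low genes it passed (adjusted p = 0.00406). The ObF1 water library, where Ankrd1 was highest, also had the highest summed levels of several marker lists. Among them were the mural and contractile list (9112 CPM, against 8419 in LnF1 water) and the progenitor and fibroblast list (28177 against 27031). Endothelial markers (18.6 against 7.17) and Schwann cell markers (15.6 against 2.67), both low, were among them too. Their part in the Ankrd1 difference was not tested.

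Lats2 was higher in ObF1 in both drinks, 1.68-fold with water and 1.32-fold with 1,3BD (log2 0.57, SE 0.21, limma adjusted p = 0.347). Tead2 was lower in both, with log2 differences of -0.59 and -0.42 (additive fit -0.50, SE 0.20, limma adjusted p = 0.392). Wwtr1 (0.20 and 0.36) and Tead1 (0.22 and 0.27) were slightly higher in ObF1 in both drinks, and their adjusted p was 0.615 and 0.681. Amotl2 was 1.45-fold higher in ObF1 with water and level with 1,3BD (log2 -0.00577, interval -0.0727 to 0.0612). Tead3 differed by 0.07 with water (interval -0.03 to 0.17, turning to -0.0312 with library totals) and by -0.53 with 1,3BD (-0.68 to -0.39). Tead4 differed by 0.36 (-0.35 to 1.07) and 1.29 (0.65 to 1.97) on 29 to 68 reads. Yap1 and Ajuba had opposite signs in the drinks: 0.46 with water and -0.26 with 1,3BD for Yap1, and 0.37 and -0.91 for Ajuba. The additive fit, which averages them, gave 0.10 for Yap1 (turning to -0.00921 with library totals) and -0.27 for Ajuba. Whether the parental difference itself differs between drinks could not be tested, since that contrast would use up all 4 libraries.

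**Figure D5:**
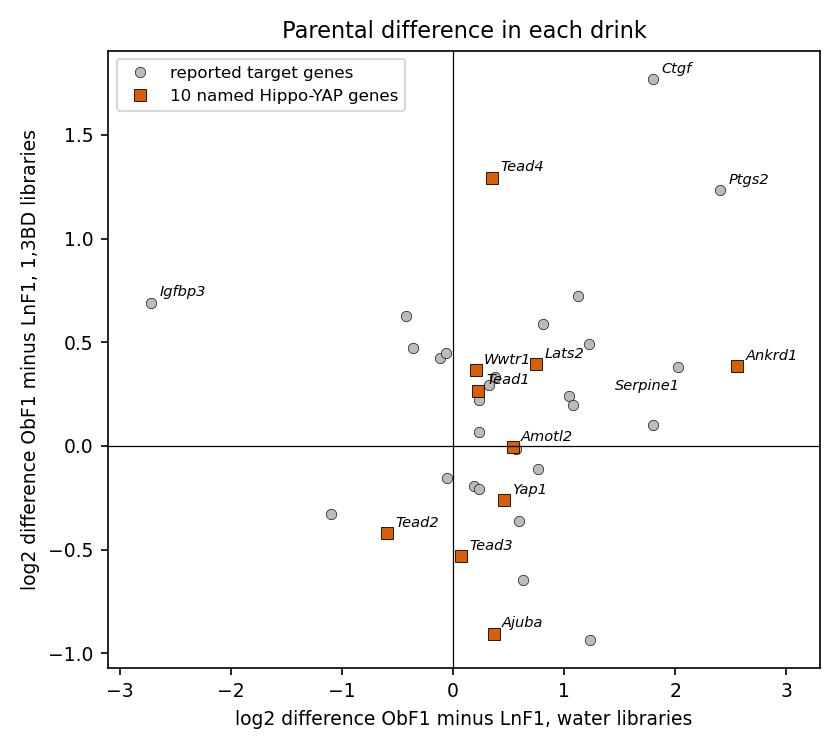
Log2 difference between ObF1 and LnF1 with water (horizontal axis) and with 1,3BD (vertical axis), which share no library. Orange squares are the 10 genes and grey circles the tested target genes. Ankrd1 lies at 2.56 and 0.39, and Ajuba at 0.37 and -0.91.

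Of the other pathway genes, 2 of 60 tested passed for parents, both reported targets and both higher in ObF1, where 0.195% of all genes tested were called higher. Ctgf was 3.48-fold higher with water and 3.41-fold with 1,3BD (log2 1.78, SE 0.19, limma adjusted p = 0.00163). Ptgs2, the inducible cyclooxygenase, went from 41.8 to 221 CPM with water and from 67.3 to 158 CPM with 1,3BD (log2 1.82, SE 0.27, limma adjusted p = 0.0328). Next in size were Ccdc80 (0.92, limma adjusted p = 0.118), a matrix protein gene, and Cyr61 (0.70, limma adjusted p = 0.212), the relative of Ctgf, which did not pass. Of the 4 fits that each left out 1 library, 0 called either Ctgf or Ptgs2. The median log2 difference of the target list was 0.28, against 0.01 for all genes tested. All lists were chosen with earlier results of these data known, so neither this median nor the count of 2 of 60 is independent evidence. Vgll3, at 203 against 406 CPM with water and 119 against 220 CPM with 1,3BD, came close (0.94, SE 0.19, limma adjusted p = 0.0854). In the kinase and adaptor lists 0 genes passed, with 3 of 23 and 3 of 8 at an unadjusted p under 0.05 in limma, and edgeR called 2 pathway genes in all. Fat4, an atypical cadherin gene, differed by -1.003 with water and -0.40 with 1,3BD (limma adjusted p = 0.248). Stk4 (0.50), Slmap (0.38), Taok3 (0.54), Trip6 (-0.63), Tjp1 (0.56) and Amotl1 (0.31) had limma adjusted p-values from 0.338 to 0.589.

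To place each pattern among other genes, log2 values were centred on each gene's mean over the 4 libraries, and likeness was taken as the root mean square difference from the member among 9958 genes at a mean of at least 5 CPM, with gene models named only by number or ending in Rik left out. With 4 points per gene, close matches are common, and the match is a description. Nearest to Ankrd1 were Cntn2 (0.324), Rgs8 (0.327) and Tgm2 (0.412). Tgm2, the gene of transglutaminase 2, stood at 86.2 and 251 CPM with water and 4.63 and 5.85 CPM with 1,3BD in LnF1 and ObF1. These distances were larger than for any other member, and the nearest of the 10 genes, Ajuba, was at 1.66. Nearest to Ajuba were Tnk2 (0.0754), Tnfrsf12a (0.120) and Dok1 (0.127), and to Amotl2 Ccl7 (0.0644), Ldb3 (0.0684) and Kalrn (0.0709). Tead3 was matched most closely by Cacna1c (0.00848), Wwtr1 by Ypel5 (0.0148), Tead1 by Vwa8 (0.0214), Tead2 by Osr1 (0.0293), Yap1 by Umad1 (0.0294) and Lats2 by Ppfibp1 (0.0333). Among the 10 genes, the closest pairs were Yap1 with Tead1 (0.235) and Tead2 with Tead3 (0.239).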

How the data were processed

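Per the labels' protocols, TRIzol served for extraction and a KAPA mRNA kit for libraries. The submitters' processing notes name mm10, edgeR and DESeq2, with no role. For aligner, counter, annotation and strand: not given in the sources used here. The deposited table, named as raw counts, holds a scaled signal: 100% of values were whole multiples of the smallest value in their column (relative tolerance 1e-06), so whole reads were recovered and the unit was read as CPM times a scaling factor for each library. Columns that name no drink were matched to water. The main test was limma 3.58.1 with log2(CPM + 0.0796) values, where the pseudocount equals 2 reads, using trend and robust moderation, for genes with at least 1 CPM in 2 libraries. Fold changes on this scale understate those of low genes. EdgeR 4.0.16 and DESeq2 1.42.0 were run on the recovered reads. Gene lengths and positions came from GENCODE M21 (GRCm38).

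The 10 genes and all lists were chosen with earlier results of these data known. From each pathway list, up to 4 genes at a mean of at least 5 CPM are named per comparison, by the largest smaller single-library difference of the same sign in both settings. 1 gene named by this rule is not reported here. Lats1, Mob1b, Taok1, Slmap, Dchs1, Wwc1, Frmd6, Ptpn14, Fat1, Gadd45a and Vgll4 were named after their values were seen. P-values rest on 1 pool per combination. They measure how far a difference departs between settings of the other factor, after moderation, and not the spread between animals or between pools of 1 combination. Alternatives covered the pseudocount, filter, scaling, tool, model and each library left out, and transcript length and library totals for single differences were added after seeing the data. The models were tested on simulated data. Intervals are exact and, as reads carry no molecular identifiers, cover counting error only.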

Additional observations from a re-analysis of the deposited data

Results flagged for a closer look

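Yap1 and Ajuba stood out because their parental difference pointed one way with water and the other way with 1,3BD, each beyond counting error. For Yap1 the log2 difference between ObF1 and LnF1 was 0.46 with water (exact 95% interval 0.40 to 0.51) and -0.26 with 1,3BD (-0.32 to -0.20). For Ajuba it was 0.37 with water (0.25 to 0.49) and -0.91 with 1,3BD (-1.18 to -0.64). The difference between drinks was not tested, since each value compares 1 pool with 1 pool and the intervals hold no spread between animals.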

How the results depend on the processing

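No paired analysis was possible because each group has 1 library and the labels give no replicate numbers. Of 109 log2 differences of the 10 genes for 1,3BD under other settings with all 4 libraries, 107 kept direction and side of the threshold. The exceptions were Wwtr1 without parents in the model (0.57, no longer passing), when 0 of the 10 were called higher, and Tead1 with library totals (0.18). For parents 106 of 109 did. The exceptions were Ankrd1, which passed without a filter (1.45) and with DESeq2 (1.71), 1 gene called higher in each, and Yap1 with library totals (-0.00921). Library totals shift the median gene by 0.25 for drink and -0.11 for parents. Leaving out 1 library for 1,3BD, Ankrd1 ranged from -6.49 to -3.94, Tead2 from -1.49 to -0.90, Wwtr1 from 0.39 to 0.75, Tead1 from -0.20 to 0.0632 and Tead4 from -0.53 to 0.70. Calls among the 10 ranged from 0 to 1 higher and 4 to 5 lower, among other pathway genes from 2 to 7 higher (7 in all) and 20 to 23 lower (30), and among all genes from 668 to 1926 higher (2466) and 1232 to 2731 lower (3189). For parents, where such fits drop the drink and so mix it in, Ajuba ranged from -1.79 to 1.26, Amotl2 from -0.77 to 1.31, Ankrd1 from -1.70 to 4.61, Tead2 from -1.15 to 0.14, Tead3 from -1.01 to 0.55, Wwtr1 from -0.0398 to 0.61 and Yap1 from -0.23 to 0.43. Genes called for parents then ranged from 0 to 0 higher (25) and 0 to 2 lower (13), and pathway genes from 0 to 0 higher (2). Counts of genes called higher and lower for parents were 8 and 5 at a pseudocount of 1 CPM, 196 and 156 without a filter, 10 and 5 at a mean of at least 5 CPM, 70 and 49 with DESeq2, and 0 and 0 without drink in the model. They were 16 higher with library totals and 16 with recomputed TMM factors. Pathway genes called higher for parents were 1, 7, 1, 5 and 0 in the first 5 of these settings. Fits without a library also lack a factor, and the cause of the other shifts was not tested. In 1,3BD libraries, 20 and 25 reads limit Ankrd1.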
